A study of Mus musculus with 58 samples.

Results

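The response of skeletal muscle to a human pancreatic tumour was compared between the diaphragm, the main muscle of breathing, and the tibialis anterior (TA), a muscle at the front of the lower hindlimb. For each gene the quantity described is the difference between the tumour effects in both muscles, that is (diaphragm PDX minus diaphragm sham) minus (TA PDX minus TA sham), averaged with equal weight over 4 cohorts. All 58 of the 58 arrays of the series enter it, in 16 groups by muscle, cohort and treatment. PDX (patient-derived xenograft) mice were adult females of the immunodeficient NSG strain with a portion of a resected human pancreatic ductal adenocarcinoma attached to the pancreas. Sham mice were adult NSG females as well, operated on without receiving a tumour, so that surgery and the missing lymphocytes of the strain were common to all groups. The tumours came from 4 patients, and mice were killed once those with a tumour showed severe cachexia, the wasting of muscle and fat that accompanies cancer, or once a tumour had grown past 3 cm. Each muscle had 17 PDX arrays (3, 5, 5 and 4 in cohorts 1 to 4) and 12 sham arrays (3 in each cohort). Values are log2 signals per gene, so that a difference of 1 is a doubling. The labels do not say that each array came from a separate mouse, and the p-values measure only the spread between these samples.

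Limb muscle that wastes in cachexia is known to switch on a programme of protein breakdown under the FoxO transcription factors and the glucocorticoid receptor. Fbxo32, also called atrogin-1, and Trim63, also called MuRF1, are its best known members and tag muscle proteins with ubiquitin for the proteasome. Between the fibres lie fibroblasts and fibro-adipogenic progenitors, which make the collagens of the extracellular matrix, and macrophages, which take up debris and present antigen. The diaphragm contracts throughout life, is covered by mesothelium and touches the liver, whereas the TA is a fast limb muscle anchored by long tendons.

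The tissue labels were checked against marker genes. Hoxc10, a positional gene of the hindlimb, lay between 2.03 and 4.19 on diaphragm arrays and between 6.69 and 7.46 on TA arrays, without overlap, and the muscle enzyme gene Ckm was above 10 on every array. The hindlimb genes Pitx1 and Tbx4 were low in both muscles. Pitx1 lay between 2.23 and 3.50 on diaphragm arrays and between 2.81 and 3.83 on TA arrays, and Tbx4 between 3.27 and 4.10 and between 3.36 and 4.20. Liver transcripts were present on many diaphragm arrays of both treatments. The mean of 22 hepatocyte markers had a lowest, median and highest value of 3.29, 5.65 and 9.99 on diaphragm PDX arrays and 3.30, 5.07 and 9.65 on diaphragm sham arrays, against 2.99, 3.33 and 5.36 on TA PDX arrays and 2.88, 3.14 and 4.60 on TA sham arrays. Leaving out the 11 diaphragm arrays (6 PDX, 5 sham) and 3 TA arrays (2 PDX, 1 sham) that stood more than 1 log2 unit above their muscle's median gave the values quoted below as "without the hepatocyte-rich arrays". The 18 diaphragm arrays kept in that setting still reached a hepatocyte mean of 6.43, above every TA array. This highest value was on the PDX array kept in cohort 1, and the sham array kept there had 3.36. The median difference of the 22 hepatocyte markers was -0.26 with all arrays and 0.69 in that setting. Liver signal was thus not balanced between the treatments there, and the setting cannot separate liver content from the tumour effect. The diaphragm PDX and sham groups of cohort 1 and the diaphragm sham group of cohort 3 kept 1 array each. Values quoted for that setting rest in part on these groups, and the cause of a lost call was not tested. In tissue RNA of this kind, fewer cells of a type and less RNA per cell cannot be told apart, which applies to every gene of matrix, macrophage and tendon cells described here.

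The tumour effect differed between the muscles for 1468 of 23185 genes, or 6.33% of those tested (limma, Benjamini-Hochberg adjusted p under 0.05). The difference was above 0 for 849 genes (3.66%) and below 0 for 619 (2.67%). With each array centred on its own median the split was 662 above 0 and 868 below, and without the hepatocyte-rich arrays it was 628 and 391, with 829 of the 1468 genes shared and all 1468 keeping their sign. At the same threshold 1366 genes rose in diaphragm (5.89%) and 1526 fell (6.58%), and 1465 rose in TA (6.32%) and 1514 fell (6.53%). Genes with a called difference were sorted by which muscle's own effect passed. The effects were opposite for 124 genes (0.535%), of which 106 rose in diaphragm and fell in TA, and 18 fell in diaphragm and rose in TA. Only the TA effect passed for 558 genes (2.41%), called limb-only here, with 320 up and 238 down. Only the diaphragm effect passed for 591 genes (2.55%), called diaphragm-only, with 407 up and 184 down. In the muscle that did not pass, the 95% interval lay within 1.5-fold of no effect for 532 of the 558 limb-only genes and for 582 of the 591 diaphragm-only genes. A further 38 genes moved the same way in both muscles by unequal amounts, and 157 passed for the difference but for neither muscle. The difference had the same sign in all 4 cohorts for 1308 of the 1468 genes. A test for unequal differences among the cohorts called 0 genes (limma F test, with 1305 at an unadjusted p under 0.05). For 323 of the 1468 genes a group mean lay under 3.78, the median of all probe sets, where signals compress, so that an effect involving such a group, called dim here, may be understated and a difference may be too small or too large. Of the genes given below with a called difference, this held for Postn, Ctsk, Tnmd, Kera, Ccl8, Ms4a7, C3ar1, C7, H2-Aa, Chl1, Timp1, Msln, Tecrl, Adig, Top2a and Oasl2.

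**Figure D1:**
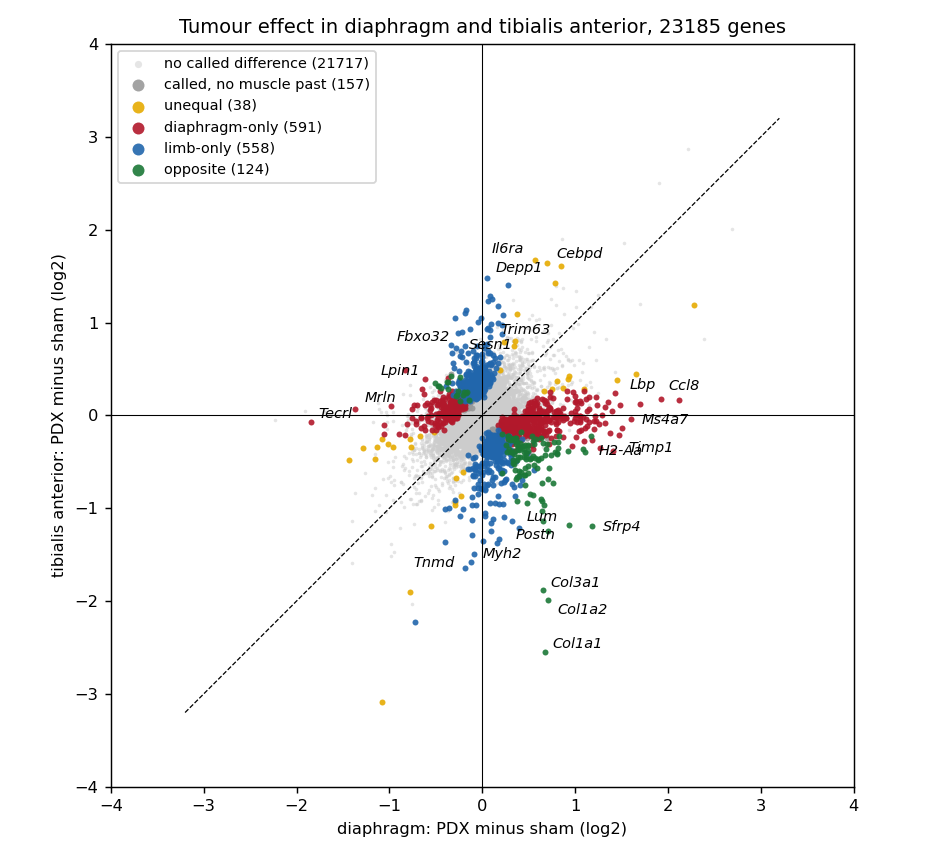
Tumour effect (PDX minus sham, log2) in diaphragm on the horizontal axis and in TA on the vertical axis, 1 point per gene, coloured by which muscle's own effect passed the test among genes with a called difference; the dashed line marks equal effects. Type I and III collagen genes lie at the lower right, at a diaphragm effect of 0.66 to 0.71 and a TA effect of -2.55 to -1.89.

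The largest contrast among all the genes named here was in fibrillar collagen. Col1a1, which encodes the alpha 1 chain of type I collagen, had a lowest, median and highest log2 signal of 7.22, 8.57 and 10.28 on diaphragm PDX arrays and 7.49, 8.14 and 8.76 on diaphragm sham arrays, against 4.34, 5.93 and 7.50 on TA PDX arrays and 7.50, 8.35 and 9.03 on TA sham arrays. In diaphragm 8 of 17 PDX arrays were above every sham array and the groups overlapped, whereas in TA 16 of 17 PDX arrays were below every sham array. Its level rose by 0.68 ± 0.18 (SE) in diaphragm (adjusted p = 0.0127) and fell by 2.55 ± 0.15 in TA (adjusted p = 3.14e-11). The difference of 3.23 ± 0.25 is 9.35-fold (limma, Benjamini-Hochberg adjusted p = 7.08e-13), and it was 4.38, 2.99, 2.90 and 2.64 in cohorts 1 to 4. Col3a1, the chain of type III collagen, had 6.92, 8.35 and 9.83 on diaphragm PDX arrays and 7.25, 7.93 and 8.35 on diaphragm sham arrays, against 3.96, 5.38 and 6.55 on TA PDX arrays and 6.09, 7.11 and 7.54 on TA sham arrays. Its effects were 0.66 in diaphragm and -1.89 in TA, and the difference was 2.54 ± 0.24 (adjusted p = 2.33e-10). The second chain of type I collagen, Col1a2, followed with 0.71 in diaphragm and -1.99 in TA, a difference of 2.69 ± 0.22 (adjusted p = 8.59e-12).

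The promoter of Col1a2, a gene of the opposite class, is shown as an example. It had a start site in the RefSeq table (GRCm38.p6), which held 5 of the 10 genes looked up. Col3a1 also had an entry and is not shown. The 250 bases before the start, chr6:4505368-4505617 on the plus strand, carry a CCAAT box, in capitals, 109 to 105 bases before the start. The motif CCAAT occurs on either strand in 33.8% of 32851 promoter windows of this length. A match is a description of the letters in the window.
Col1a2: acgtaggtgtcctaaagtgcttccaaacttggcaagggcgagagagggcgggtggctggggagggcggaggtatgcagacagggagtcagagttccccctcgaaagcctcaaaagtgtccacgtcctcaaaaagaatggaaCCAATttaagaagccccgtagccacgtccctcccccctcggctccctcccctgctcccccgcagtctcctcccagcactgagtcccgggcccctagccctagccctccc

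Of the 42 measured genes of a list of fibrillar collagens and matrix proteins (45 members), 34 had a difference called above 0 and 0 below, beside 3.66% and 2.67% of all genes. The median difference was 1.10, beside -0.01 over all genes. In diaphragm 18 of the 42 rose and 2 fell, and in TA 0 rose and 33 fell. By class, 12 were opposite, 17 limb-only and 4 diaphragm-only. Postn, the matricellular protein periostin, had effects of 0.94 in diaphragm and -1.18 in TA. Bgn, the small proteoglycan biglycan, had 0.64 in diaphragm and -1.02 in TA, and Thbs4, a thrombospondin of tendon and muscle junctions, had 0.71 in diaphragm and -1.24 in TA. The differences of these 3 genes were 2.12, 1.67 and 1.95 (adjusted p = 1.66e-08, 2.06e-09 and 2.16e-07). Sfrp4, a secreted Wnt antagonist, had 4.00, 6.46 and 8.26 on diaphragm PDX arrays and 4.44, 4.99 and 5.64 on diaphragm sham arrays, against 3.15, 4.16 and 4.91 on TA PDX arrays and 4.36, 5.21 and 6.33 on TA sham arrays. On 12 of 17 diaphragm PDX arrays it was above every sham array, and on 12 of 17 TA PDX arrays it was below every sham array. Its effects, 1.19 in diaphragm and -1.19 in TA, were of like size and opposite sign, and the difference was 2.37 ± 0.29 (adjusted p = 2.63e-07).

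Genes that process or cut collagen moved apart in the same direction. Pcolce, the enhancer of procollagen C-proteinase, had effects of 0.66 in diaphragm and -1.14 in TA (difference 1.79 ± 0.17, adjusted p = 2.95e-10). Loxl1, an oxidase that crosslinks elastin and collagen, had 0.37 in diaphragm and -0.92 in TA (adjusted p = 1.39e-06). Among 26 measured genes for collagen processing and crosslinking, 11 were called above 0 and 0 below, with a median of 0.33, in diaphragm 5 rose and 2 fell, and in TA 2 rose and 14 fell. Mmp2, gelatinase A, had a lowest, median and highest signal of 6.73, 7.74 and 8.85 on diaphragm PDX arrays and 6.70, 7.11 and 7.75 on diaphragm sham arrays, against 5.28, 6.15 and 6.52 on TA PDX arrays and 6.78, 7.03 and 7.47 on TA sham arrays. All 17 TA PDX arrays were below every TA sham array, while 7 of 17 diaphragm PDX arrays were above every diaphragm sham array. Its difference was 1.53 ± 0.20 (adjusted p = 5.41e-07). The aggrecanase Adamts5 and the collagen-cutting protease cathepsin K (Ctsk) were also opposite, with 0.49 and 0.67 in diaphragm against -0.62 and -0.43 in TA (adjusted p of the differences 3.54e-05 and 4.89e-06). Of 26 measured matrix proteases and inhibitors, 9 were called above 0 and 0 below, 12 rose and 1 fell in diaphragm, and 1 rose and 5 fell in TA.

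**Figure D2:**
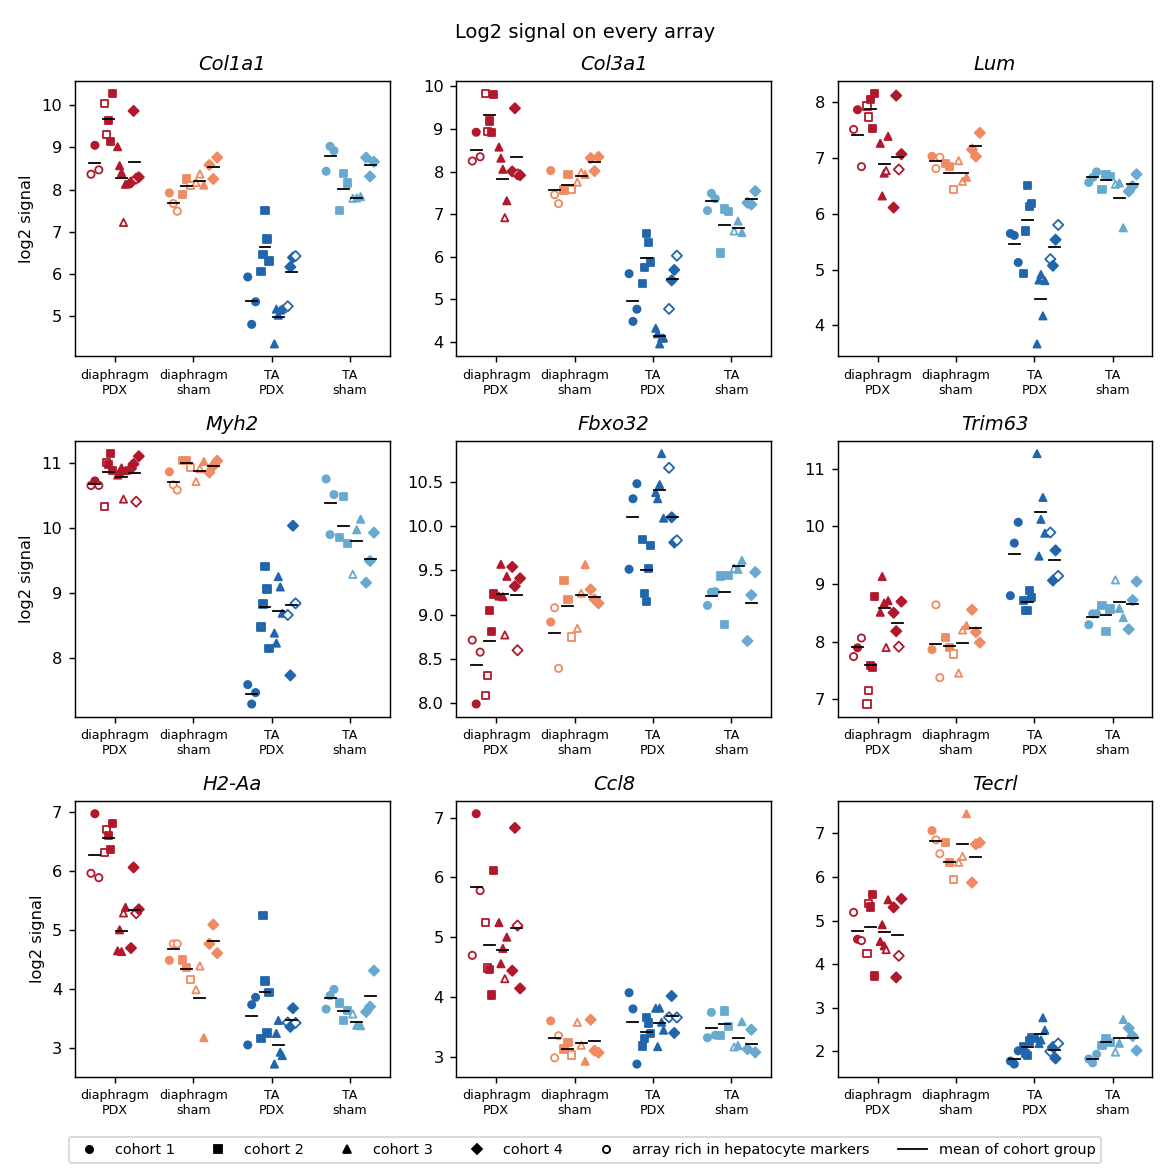
Log2 signal of 9 genes on every array, by muscle and treatment from left to right (diaphragm PDX, diaphragm sham, TA PDX, TA sham), with marker shapes for cohorts, open symbols for hepatocyte-rich arrays and bars for cohort group means. Col1a1 reached 10.28 on a diaphragm PDX array and was as low as 4.34 on a TA PDX array, and Tecrl was below every diaphragm sham array on all 17 diaphragm PDX arrays.

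A larger set of matrix genes fell in TA while their diaphragm effect did not pass. Lum, the collagen-binding proteoglycan lumican, had 6.12, 7.39 and 8.16 on diaphragm PDX arrays and 6.44, 6.93 and 7.46 on diaphragm sham arrays, against 3.67, 5.19 and 6.50 on TA PDX arrays and 5.75, 6.56 and 6.75 on TA sham arrays. The TA effect was -1.21 ± 0.15 and the diaphragm effect 0.40 (95% interval 0.08 to 0.72, adjusted p = 0.104), a difference of 1.61 ± 0.22 (adjusted p = 1.71e-06). Dpt, the matrix protein dermatopontin, and Mfap5, a microfibril protein, were below every TA sham array on all 17 TA PDX arrays, with TA effects of -1.35 and -1.38. Their diaphragm effects were 0.01 and 0.16 (adjusted p of the differences 1.39e-06 and 3.86e-07). Fibronectin (Fn1), type VI collagen (Col6a1) and osteonectin (Sparc) had diaphragm effects of 0.18, 0.32 and 0.24 and TA effects of -1.33, -1.14 and -1.09. Of 19 measured basement membrane genes 6 were called above 0 and 0 below, all 6 limb-only, with a median difference of 0.24. The linker nidogen 1 (Nid1) was below every sham array on 17 of 17 TA PDX arrays and had effects of 0.02 in diaphragm and -0.74 in TA (difference 0.76 ± 0.13, adjusted p = 9.69e-05). Perlecan (Hspg2) had 0.06 in diaphragm and -0.74 in TA, and the type IV collagen chains Col4a1 and Col4a2 had differences of 0.68 and 0.72, of which the first lost its call without the hepatocyte-rich arrays (adjusted p = 0.0583).

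Many markers of the cells that make this matrix also fell in TA. Lum, Dpt and Mfap5, described above, are themselves among the fibroblast markers, and Thbs4 is among the tendon markers. The marker lists are therefore not independent of the matrix genes. For fibroblasts and their progenitors the mean of 19 markers was 5.97, 6.50 and 6.91 (lowest, median, highest) on diaphragm PDX arrays and 6.04, 6.34 and 6.52 on diaphragm sham arrays, against 4.46, 5.20 and 5.56 on TA PDX arrays and 5.60, 5.78 and 6.08 on TA sham arrays. The TA groups did not overlap and the diaphragm groups did. Of the 19 markers 12 were called above 0 and 0 below (median difference 0.80), 15 fell in TA and 3 rose and 2 fell in diaphragm. Pi16, a marker of adventitial fibroblasts, was opposite (0.66 in diaphragm, -0.97 in TA, difference 1.63, adjusted p = 1.51e-08), and Cd34, a surface protein of progenitors and endothelium, was limb-only (0.11 in diaphragm and -0.69 in TA, adjusted p = 0.000534). The mean of 14 tendon markers was 4.33, 4.94 and 5.81 on diaphragm PDX arrays and 4.58, 4.98 and 5.51 on diaphragm sham arrays, against 3.83, 4.24 and 5.16 on TA PDX arrays and 4.77, 5.12 and 5.95 on TA sham arrays. Of these 14 genes 8 were called above 0 and 0 below (5 and 0 without the hepatocyte-rich arrays), 11 fell in TA and 2 rose in diaphragm. Tenomodulin (Tnmd), a membrane protein of tendon cells, had effects of -0.12 in diaphragm and -1.58 in TA, and Fmod, the proteoglycan fibromodulin, had -0.19 in diaphragm and -1.64 in TA. When the mean of 5 tendon genes entered the fit as a covariate with its own slope in each muscle, standard errors grew 1.53-fold and 7 genes stayed called above 0 and 0 below, among them Col1a1 (adjusted p = 0.000293), Col1a2 (0.0031), Col3a1 (0.0166) and Pcolce (0.0315). The sign was kept in that fit for 1440 of the 1468 genes, but of the 171 named genes with a called difference 4 kept their call, and Fmod, Foxo1 and Kera turned sign. The 5 covariate genes were Scx, Mkx, Tnmd, Thbs4 and Comp, of which Tnmd and Thbs4 themselves fell in TA. The covariate thus carries a tumour effect of its own, and this fit cannot separate tendon content from that effect. The part of tendon or fibroblast content in the differences was not tested.

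**Figure D3:**
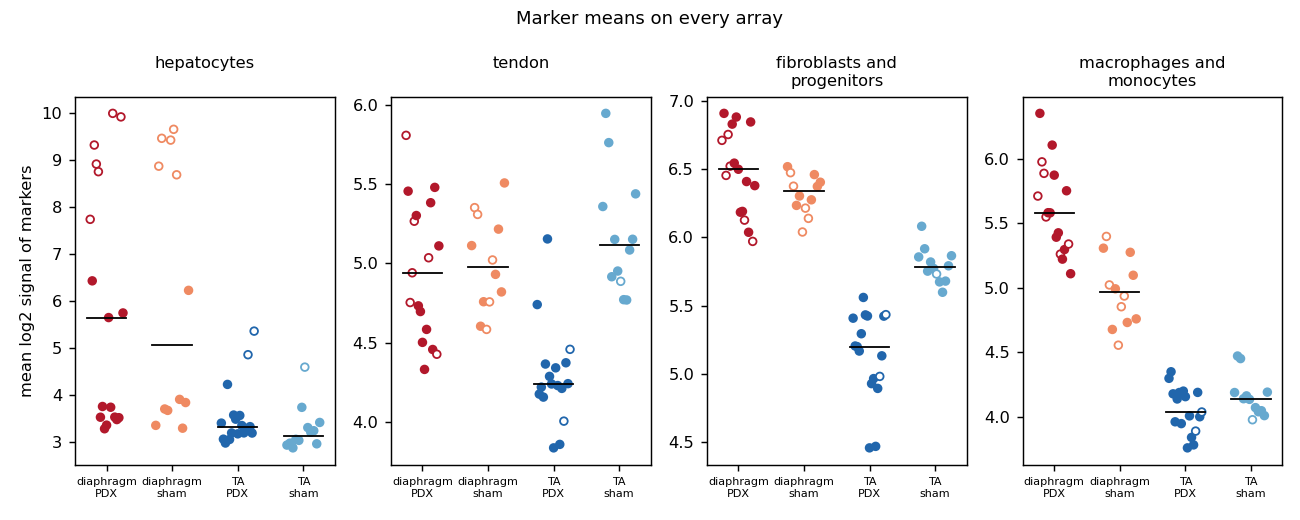
Mean log2 signal of marker genes of hepatocytes, tendon, fibroblasts with their progenitors, and macrophages on every array, by muscle and treatment from left to right; bars are medians and open symbols hepatocyte-rich arrays. Fibroblast and tendon means were low on TA PDX arrays (medians 5.20 and 4.24), macrophage means were high on diaphragm PDX arrays (median 5.58), and hepatocyte means ran up to 9.99 in diaphragm.

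Of the adult myosin heavy chain genes named here, Myh2, the chain of fast oxidative fibres, passed for the difference. It had 10.34, 10.89 and 11.15 on diaphragm PDX arrays and 10.59, 10.93 and 11.04 on diaphragm sham arrays, against 7.29, 8.66 and 10.04 on TA PDX arrays and 9.16, 9.92 and 10.76 on TA sham arrays. In TA 14 of 17 PDX arrays were below every sham array, whereas the diaphragm groups overlapped. The TA effect was -1.49 ± 0.18 and the diaphragm effect -0.09 (95% interval -0.25 to 0.08), a difference of 1.41 ± 0.21 (adjusted p = 8.47e-06) that ranged from 0.61 in cohort 4 to 2.92 in cohort 1. The other adult chains did not pass. Myh1, a fast chain, had -0.04 (95% interval -0.22 to 0.13, adjusted p = 0.867) and Myh4, the chain of the fastest fibres, had -1.26 (-2.14 to -0.37, adjusted p = 0.0811), which passed on leaving out any 1 of 4 diaphragm arrays of cohorts 2 and 3. Myh7, the slow chain, had 0.06 (-0.34 to 0.47, adjusted p = 0.923). Of 22 fast and 21 slow sarcomere genes, 1 and 2 were called above 0 and 2 and 3 below, beside 3.66% and 2.67% of all genes.

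The ligase genes Fbxo32 and Trim63 rose in TA without a called change in diaphragm. Fbxo32 had a lowest, median and highest signal of 7.99, 9.05 and 9.57 on diaphragm PDX arrays and 8.39, 9.15 and 9.56 on diaphragm sham arrays, against 9.14, 10.09 and 10.82 on TA PDX arrays and 8.70, 9.35 and 9.61 on TA sham arrays. It was above every sham array of its muscle on 1 of 17 diaphragm PDX arrays and on 13 of 17 TA PDX arrays. The TA effect was 0.75 ± 0.12 (adjusted p = 5.88e-05) and the diaphragm effect -0.18 (95% interval -0.46 to 0.09, adjusted p = 0.474). Their difference, -0.93 ± 0.18 (adjusted p = 0.000557), was below 0 in every cohort, at -1.27, -0.66, -0.84 and -0.95. Trim63 had 6.92, 8.06 and 9.13 on diaphragm PDX arrays and 7.38, 8.02 and 8.64 on diaphragm sham arrays, against 8.54, 9.48 and 11.26 on TA PDX arrays and 8.17, 8.52 and 9.07 on TA sham arrays. It was above every sham array on 5 of 17 diaphragm PDX arrays and on 10 of 17 TA PDX arrays. Its effects were 0.08 in diaphragm and 0.91 in TA, and the difference of -0.84 ± 0.24 (adjusted p = 0.0213) lost its call without the hepatocyte-rich arrays (adjusted p = 0.108).

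The Trim63 promoter is shown because it holds motif letters of both regulators named above, and Fbxo32 had no entry in the table. In the 250 bases before the start, chr4:134314870-134315119 on the plus strand of GRCm38.p6, the capitals mark TGTTCT, a half-site of the glucocorticoid receptor motif (200 to 195 bases before the start), followed at once by TGTTTAC, a FoxO core motif (194 to 188). The motifs do not overlap. On either strand TGTTCT was present in 16.1% and TGTTTAC in 3.17% of 32851 windows, and the pair in this arrangement in 1 window (0.00304%), which describes the sequence and says nothing of binding on these arrays.
Trim63: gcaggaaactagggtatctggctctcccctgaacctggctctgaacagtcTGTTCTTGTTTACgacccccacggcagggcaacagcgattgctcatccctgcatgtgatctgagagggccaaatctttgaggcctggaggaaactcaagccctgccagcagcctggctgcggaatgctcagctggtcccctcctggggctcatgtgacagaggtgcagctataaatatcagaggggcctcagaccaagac

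Of 32 measured genes in a list of atrophy ligases and FoxO targets (35 members), 0 had a difference called above 0 and 12 below, with a median of -0.37. Over all genes the shares were 3.66% and 2.67%. In diaphragm 4 rose and 7 fell, and in TA 17 rose and 3 fell. By class 7 were limb-only, 2 diaphragm-only and 2 unequal. Sesn1, a stress-induced inhibitor of mTORC1, had -0.26 in diaphragm and 0.89 in TA (difference -1.15 ± 0.21, adjusted p = 0.000226). The mitophagy receptor Bnip3 had -0.25 in diaphragm and 0.47 in TA (adjusted p = 0.00137). Depp1, a FoxO-induced gene, had 6.22, 7.38 and 8.70 on diaphragm PDX arrays and 6.37, 7.25 and 8.25 on diaphragm sham arrays, against 5.74, 7.41 and 9.52 on TA PDX arrays and 5.02, 5.84 and 6.85 on TA sham arrays. In diaphragm 1 of 17 PDX arrays was above every sham array and in TA 13 were, and the effects were 0.05 in diaphragm and 1.49 in TA (difference -1.44 ± 0.27, adjusted p = 0.000345). Foxo1 itself rose in both muscles, by 0.24 in diaphragm and 0.79 in TA, and its difference of -0.55 (adjusted p = 0.037) lost its call without the hepatocyte-rich arrays (adjusted p = 0.314), on leaving out any 1 of 12 of the 58 arrays, and under several other settings.

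Of 29 measured proteasome subunit genes (31 members) 9 were called below 0 and 0 above, beside 2.67% and 3.66% of all genes. The median difference was -0.22. In TA 14 rose and 0 fell, and in diaphragm 0 rose and 1 fell. Psma4, a subunit of the 20S core, and Psmc6, an ATPase of the 19S cap, had diaphragm effects of -0.14 and -0.18 and TA effects of 0.35 and 0.30 (adjusted p of the differences 0.00194 and 0.000338). Without the hepatocyte-rich arrays 3 proteasome genes and 8 atrophy genes were called below 0. All 32 genes of a glucocorticoid-responsive list were measured, of which 14 rose in diaphragm and 25 in TA and 0 fell in either. The difference was called below 0 for 9 and above 0 for 0, with a median of -0.47, and without the hepatocyte-rich arrays it was called below 0 for 4. Pdk4, the kinase that shuts down pyruvate oxidation, had effects of -0.34 in diaphragm and 0.76 in TA (difference -1.10, adjusted p = 0.00668, and 0.0631 without the hepatocyte-rich arrays). Fkbp5, a co-chaperone induced by glucocorticoids, rose by 1.53 in diaphragm and 1.86 in TA, and its difference did not pass (-0.34, 95% interval -0.99 to 0.32, adjusted p = 0.662).

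Of the metabolic lists, 0 of 64 oxidative phosphorylation genes, 1 of 28 glycolysis and glycogen genes, 2 of 29 TCA cycle genes and 3 of 29 fatty acid genes were limb-only, beside 2.41% of all genes. Further limb-only genes among those named are given singly. Idh2, the mitochondrial NADP-dependent isocitrate dehydrogenase, was above every sham array on 0 of 17 diaphragm PDX arrays and on 15 of 17 TA PDX arrays, with effects of -0.24 in diaphragm and 0.64 in TA (difference -0.87 ± 0.13, adjusted p = 8.47e-06). Tbc1d4, which regulates the glucose transporter GLUT4, had -0.28 in diaphragm and 0.72 in TA (adjusted p = 0.000229), and Plin4, a lipid droplet coat protein, had 0.22 in diaphragm and 0.97 in TA (adjusted p = 0.00585). The sodium, potassium and chloride cotransporter Slc12a2 was above every sham array on 17 of 17 TA PDX arrays, with -0.01 in diaphragm and 0.66 in TA (adjusted p = 0.000532). Igfbp3, a binding protein of insulin-like growth factors, had 0.10 in diaphragm and 1.26 in TA (adjusted p = 0.000444), but 0.05 as its difference in cohort 2. Igfbp5 and Igfbp6, of the same family, had diaphragm effects of 0.03 and -0.07 and fell by 1.08 and 0.97 in TA, and the difference of Igfbp6 lost its call without the hepatocyte-rich arrays (adjusted p = 0.0778).

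**Figure D4:**
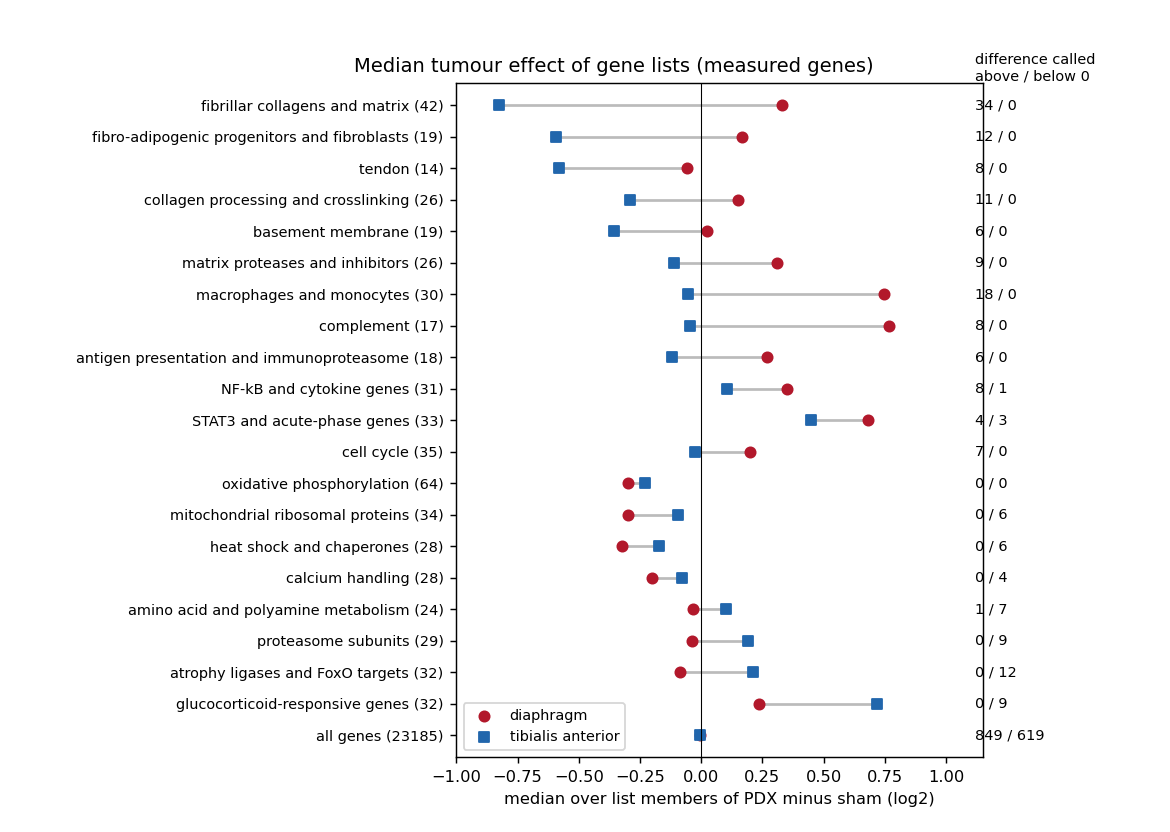
Median over the measured genes of each list (number in brackets) of the tumour effect, PDX minus sham in log2, in diaphragm (circles) and TA (squares), with the numbers of genes whose difference was called above and below 0 at the right. Matrix, progenitor and macrophage lists have the circle right of the square, and atrophy, proteasome and glucocorticoid lists have it left of the square.

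Many genes of macrophages, complement and antigen presentation rose in diaphragm, and few of them rose in TA. Ccl8, a chemokine for monocytes, had 4.03, 4.81 and 7.07 on diaphragm PDX arrays and 2.92, 3.16 and 3.62 on diaphragm sham arrays, against 2.87, 3.58 and 4.07 on TA PDX arrays and 3.07, 3.36 and 3.76 on TA sham arrays. All 17 diaphragm PDX arrays were above every diaphragm sham array, and the TA groups overlapped. The difference was 1.75 ± 0.29 (adjusted p = 3.6e-05). The macrophage genes Mrc1, the mannose receptor, and Ms4a7 were also above every sham array on 17 of 17 diaphragm PDX arrays, with diaphragm effects of 1.18 and 1.60 and TA effects of -0.27 and -0.04 (adjusted p of the differences 9.03e-07 and 8.46e-08). Of 30 measured macrophage and monocyte markers (32 members) 18 were called above 0 and 0 below, beside 3.66% and 2.67% of all genes, with a median difference of 0.83. Of these markers 21 rose and 0 fell in diaphragm, and 1 rose and 5 fell in TA. Their mean was 5.11, 5.58 and 6.35 (lowest, median, highest) on diaphragm PDX arrays and 4.55, 4.96 and 5.40 on diaphragm sham arrays, against 3.76, 4.04 and 4.35 on TA PDX arrays and 3.98, 4.14 and 4.47 on TA sham arrays. The diaphragm groups overlapped, with the median PDX array above every sham array. Without the hepatocyte-rich arrays 16 macrophage markers were called above 0 and 0 below. Of the 30, 4 were opposite, among them the hyaluronan receptor Lyve1, with 0.81 in diaphragm and -0.29 in TA (adjusted p = 7.57e-07).

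Complement genes showed both patterns. C1qb, a chain of the recognition molecule C1q, had 6.50, 7.21 and 8.64 on diaphragm PDX arrays and 5.79, 6.42 and 7.39 on diaphragm sham arrays, against 4.43, 5.06 and 5.60 on TA PDX arrays and 4.91, 5.39 and 5.96 on TA sham arrays. It rose by 0.92 ± 0.14 in diaphragm and fell by 0.38 ± 0.078 in TA, a difference of 1.30 ± 0.17 (adjusted p = 5.04e-07). The receptor of the C3a fragment, C3ar1, was opposite too (0.81 in diaphragm and -0.41 in TA, adjusted p = 1.15e-05) and dim on TA PDX arrays, and C7, a component of the membrane attack complex, was diaphragm-only (1.48 in diaphragm and 0.11 in TA, adjusted p = 0.000443), dim on TA sham arrays. Of 17 measured complement genes 8 were called above 0 and 0 below, with a median of 0.75, beside 3.66% and 2.67% of all genes called.

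H2-Aa, a chain of MHC class II, which presents peptides on macrophages and dendritic cells, had 4.64, 5.89 and 6.98 on diaphragm PDX arrays and 3.18, 4.50 and 5.10 on diaphragm sham arrays, against 2.73, 3.43 and 5.25 on TA PDX arrays and 3.38, 3.65 and 4.32 on TA sham arrays. In diaphragm 13 of 17 PDX arrays were above every sham array, while in TA 8 of 17 were below and 1 above, in a range where the signal is dim. The effects were 1.37 ± 0.14 in diaphragm and -0.19 ± 0.15 in TA, a difference of 1.57 ± 0.22 (adjusted p = 2.15e-06). H2-Eb1 was above every sham array on 17 of 17 diaphragm PDX arrays (0.72 in diaphragm, -0.05 in TA, adjusted p = 1.4e-05). H2-Ab1 and Cd74, the invariant chain that escorts class II molecules, had 1.07 and 1.27 in diaphragm and -0.16 and -0.35 in TA (adjusted p = 4.22e-06 and 6.34e-07). Of 18 genes for antigen presentation and the immunoproteasome 6 were called above 0 and 0 below, beside 3.66% and 2.67% of all genes.

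The 250 bases before the starts of H2-Aa (chr17:34287824-34288073, minus strand) and H2-Eb1 (chr17:34305617-34305866, plus strand) of GRCm38.p6, from RefSeq, are shown because both genes moved together and share the letters of the Y box known from class II promoters. The capitals mark CTGATTGG, 51 to 44 bases before the start of H2-Aa and 62 to 55 before that of H2-Eb1. Its last letters are CCAAT on the other strand. CTGATTGG occurs on either strand in 3.83% of 32851 windows, and a match is a description. H2-Ab1 and Cd74 had no entry.
H2-Aa: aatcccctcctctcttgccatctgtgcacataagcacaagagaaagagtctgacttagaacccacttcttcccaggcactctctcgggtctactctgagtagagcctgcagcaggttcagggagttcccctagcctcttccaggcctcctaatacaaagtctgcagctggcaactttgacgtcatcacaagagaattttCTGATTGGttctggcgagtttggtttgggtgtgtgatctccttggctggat
H2-Eb1: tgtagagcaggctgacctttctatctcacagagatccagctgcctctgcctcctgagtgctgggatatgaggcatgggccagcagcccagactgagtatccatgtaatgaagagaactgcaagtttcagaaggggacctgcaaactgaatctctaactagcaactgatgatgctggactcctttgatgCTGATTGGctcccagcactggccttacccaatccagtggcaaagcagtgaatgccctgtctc

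Outside the immune genes, Chl1, a neural adhesion molecule, had the largest diaphragm-only rise among the genes named, with 3.18, 4.92 and 8.57 on diaphragm PDX arrays and 2.86, 3.13 and 3.51 on diaphragm sham arrays, against 2.67, 2.99 and 3.29 on TA PDX arrays and 2.62, 2.84 and 3.03 on TA sham arrays. It was above every sham array on 14 of 17 diaphragm PDX arrays, and the effects were 2.12 ± 0.43 in diaphragm and 0.17 ± 0.068 in TA (difference 1.95, adjusted p = 0.00333). Chl1 was dim in every group but diaphragm PDX. Timp1, an inhibitor of metalloproteinases, had 1.47 in diaphragm and -0.22 in TA (adjusted p = 0.00104). Lbp, which binds bacterial lipopolysaccharide and is also made by hepatocytes, had 1.70 in diaphragm and 0.13 in TA (adjusted p = 0.000155, and 0.000586 without the hepatocyte-rich arrays), and Il1r1, the receptor of interleukin 1, had 1.43 in diaphragm and 0.24 in TA (adjusted p = 0.00585). Vcam1, an adhesion molecule for leukocytes, was above every sham array on 14 of 17 diaphragm PDX arrays (1.05 in diaphragm and -0.01 in TA, adjusted p = 0.00047). The list of NF-kB and cytokine genes had 8 of 31 called above 0 and 1 below, beside 3.66% and 2.67% of all genes. Ankrd2, a stretch-responsive protein of the sarcomere, had 1.41 in diaphragm and -0.39 in TA (difference 1.80 ± 0.36, adjusted p = 0.000762), ranging from 0.43 in cohort 4 to 4.03 in cohort 1. Msln, the mesothelial surface protein mesothelin, had 0.90 in diaphragm and -0.03 in TA (adjusted p = 4.11e-05). The mean of 17 mesothelial markers was 5.76, 6.25 and 7.15 on diaphragm PDX arrays and 5.54, 6.07 and 6.44 on diaphragm sham arrays, against 3.60, 3.69 and 3.95 on TA PDX arrays and 3.52, 3.65 and 3.75 on TA sham arrays. Msln was dim in TA, and 2 of the 17 markers were called above 0. The part of the mesothelial covering in these values was not tested.

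Genes that fell in diaphragm with no called change in TA included components of the fibre itself. Tecrl, an enoyl reductase-like protein whose human gene is linked to inherited arrhythmia, had 3.70, 4.57 and 5.61 on diaphragm PDX arrays and 5.87, 6.64 and 7.45 on diaphragm sham arrays, against 1.71, 2.10 and 2.77 on TA PDX arrays and 1.74, 2.16 and 2.73 on TA sham arrays. All 17 diaphragm PDX arrays were below every diaphragm sham array, and both TA groups were dim. The diaphragm effect was -1.84 ± 0.22 and the difference -1.77 ± 0.24 (adjusted p = 1.17e-06). Mrln, the micropeptide myoregulin, which inhibits the calcium pump SERCA, was below every sham array on 16 of 17 diaphragm PDX arrays (-0.76 in diaphragm, 0.06 in TA, adjusted p = 0.000815). Colq, which anchors acetylcholinesterase at the neuromuscular junction, had -0.56 in diaphragm and 0.11 in TA (adjusted p = 0.000106). Phkb, a subunit of phosphorylase kinase, had -0.55 in diaphragm and 0.0031 in TA (adjusted p = 0.00338), and Lrrc30, a leucine-rich repeat gene, had -0.83 in diaphragm and 0.49 in TA (adjusted p = 0.00237). The mean of 18 muscle fibre markers was 10.33, 10.87 and 11.18 on diaphragm PDX arrays and 10.84, 11.04 and 11.25 on diaphragm sham arrays, against 10.99, 11.28 and 11.42 on TA PDX arrays and 11.17, 11.38 and 11.40 on TA sham arrays. Adig, an adipocyte gene, also fell (-0.98 in diaphragm, 0.10 in TA, where it was dim, adjusted p = 8.21e-05). Adipocyte marker means were 5.49, 6.16 and 6.95 on diaphragm PDX arrays and 6.01, 6.56 and 6.93 on diaphragm sham arrays, against 4.96, 5.12 and 5.51 on TA PDX arrays and 4.92, 5.08 and 5.42 on TA sham arrays, and the part of fat in the Adig value was not tested.

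Of 34 measured mitochondrial ribosomal protein genes 28 fell in diaphragm and 5 in TA, beside 6.58% and 6.53% of all genes. The difference was called below 0 for 6, all diaphragm-only, and above 0 for 0, beside 2.67% and 3.66% of all genes. Its median was -0.19. Mrps18a, a protein of the small subunit, was below every sham array on 12 of 17 diaphragm PDX arrays and above every sham array on 8 of 17 TA PDX arrays, with effects of -0.39 in diaphragm and 0.09 in TA (difference -0.48 ± 0.089, adjusted p = 0.000234). Among 64 measured oxidative phosphorylation genes the counts were equal, with 38 falling in each muscle, and 0 passed for the difference (median -0.06). Heat shock and chaperone genes were called below 0 for 6 of 28 and above 0 for 0, with 16 falling in diaphragm and 11 in TA, and without the hepatocyte-rich arrays 2 were called below 0. Stip1, a co-chaperone of HSP70 and HSP90, had -0.62 in diaphragm and -0.16 in TA (adjusted p = 0.00159), and Hsph1, an HSP110 chaperone, fell in both, by 1.13 in diaphragm and 0.34 in TA (adjusted p of the difference 0.00885, and 0.0693 without the hepatocyte-rich arrays).

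The 18 genes that fell in diaphragm and rose in TA had median effects of -0.28 in diaphragm and 0.27 in TA. Lpin1, the phosphatidate phosphatase lipin 1, had 7.37, 8.58 and 8.90 on diaphragm PDX arrays and 8.34, 8.88 and 9.29 on diaphragm sham arrays, against 8.75, 9.15 and 9.56 on TA PDX arrays and 8.55, 8.79 and 9.12 on TA sham arrays. On 6 of 17 diaphragm PDX arrays it was below every sham array, and on 10 of 17 TA PDX arrays above every sham array. Its effects were -0.47 ± 0.14 in diaphragm and 0.32 ± 0.058 in TA (difference -0.79 ± 0.15, adjusted p = 0.000393). Acss1, the mitochondrial acetyl-CoA synthetase, had the largest difference of the 18 among the genes named, -0.86 ± 0.16, from -0.51 in diaphragm and 0.35 in TA (adjusted p = 0.0002). Asb11 and Klhl21, both substrate adaptors of ubiquitin ligases, had -0.36 and -0.38 in diaphragm and 0.29 and 0.36 in TA (adjusted p = 0.000545 and 0.00027). Without the hepatocyte-rich arrays the class held 1 gene.

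Genes that moved one way in both muscles by unequal amounts included the interleukin 6 receptor Il6ra, which had 6.28, 6.74 and 7.21 on diaphragm PDX arrays and 5.72, 6.12 and 6.55 on diaphragm sham arrays, against 5.28, 6.47 and 8.95 on TA PDX arrays and 4.60, 4.96 and 5.38 on TA sham arrays. It rose by 0.56 in diaphragm and by 1.67 in TA (difference -1.11 ± 0.25, adjusted p = 0.00249, and 0.0649 without the hepatocyte-rich arrays). Cebpd, a transcription factor of the acute-phase response, rose by 0.70 in diaphragm and 1.64 in TA (adjusted p of the difference 0.028, 0.218 without the hepatocyte-rich arrays, and not called without TA PDX replicate 3 of cohort 1). Apod, the lipid carrier apolipoprotein D, rose by 1.65 in diaphragm and 0.44 in TA (adjusted p = 0.000813). Ostn, the muscle hormone musclin, fell by 0.78 in diaphragm and 1.91 in TA (adjusted p = 0.0166, and 0.0987 without the hepatocyte-rich arrays), with a difference of the other sign in cohort 2 (-0.77). Asb2, a ubiquitin ligase adaptor that restrains muscle mass, fell by 1.08 in diaphragm and 0.26 in TA (adjusted p = 0.000414). Among genes with strong effects in both muscles, the differences of the iron-binding acute-phase protein Lcn2 (-0.66, 95% interval -1.85 to 0.54, adjusted p = 0.63), the protease inhibitor Serpina3n (0.68, -0.49 to 1.85, adjusted p = 0.601) and the metallothionein Mt2 (-0.59, -1.44 to 0.26, adjusted p = 0.506) did not pass, and each interval reached past 1.5-fold in 1 direction.

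The median effects of the classes differed in size between cohorts, while the F test of the differences between muscles among cohorts called 0 genes. Among the genes that rose in diaphragm and fell in TA, the median diaphragm effect of the 106 genes was 0.61, 0.91, 0.33 and 0.11 in cohorts 1 to 4, and the median TA effect was -0.48, -0.26, -0.53 and -0.41. In diaphragm 72 of the 106 were above 0 in all 4 cohorts, and in TA 99 were below 0 in all 4. The 407 diaphragm-only genes that rose had diaphragm medians of 0.62, 0.76, 0.42 and 0.27, and 351 were above 0 in every cohort. The 320 limb-only genes that rose had TA medians of 0.44, 0.19, 0.47 and 0.32, and 296 were above 0 in every cohort. The 238 limb-only genes that fell had TA medians of -0.52, -0.29, -0.54 and -0.43. In cohort 2 each of these diaphragm medians was the largest and each of these TA medians the smallest by size. These classes were chosen on the mean over the same cohorts, so the medians are a description. Without cohort 1, the differences of Col4a1, Col4a2, Trim63, Foxo1, Psmc6, Pdk4, Plin4, Chl1, Il1r1, Ankrd2, Mrln, Il6ra, Cebpd and Ostn were no longer called. Without cohort 2 this held for Col4a1, Trim63, Foxo1 and Il1r1, without cohort 3 for Trim63, Hsph1, Cebpd and Ostn, and without cohort 4 for Trim63, Foxo1, Hsph1, Cebpd and Ostn. Kera lost its call without each of the 4 cohorts. The other genes described above with a called difference kept their call without any single cohort. Of these, Myh2, Sesn1, Psma4, H2-Eb1, Phkb, Stip1, Asb2, Mrps18a and Igfbp3 lost it when the 4 cohort values served as the replicates.

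**Figure D5:**
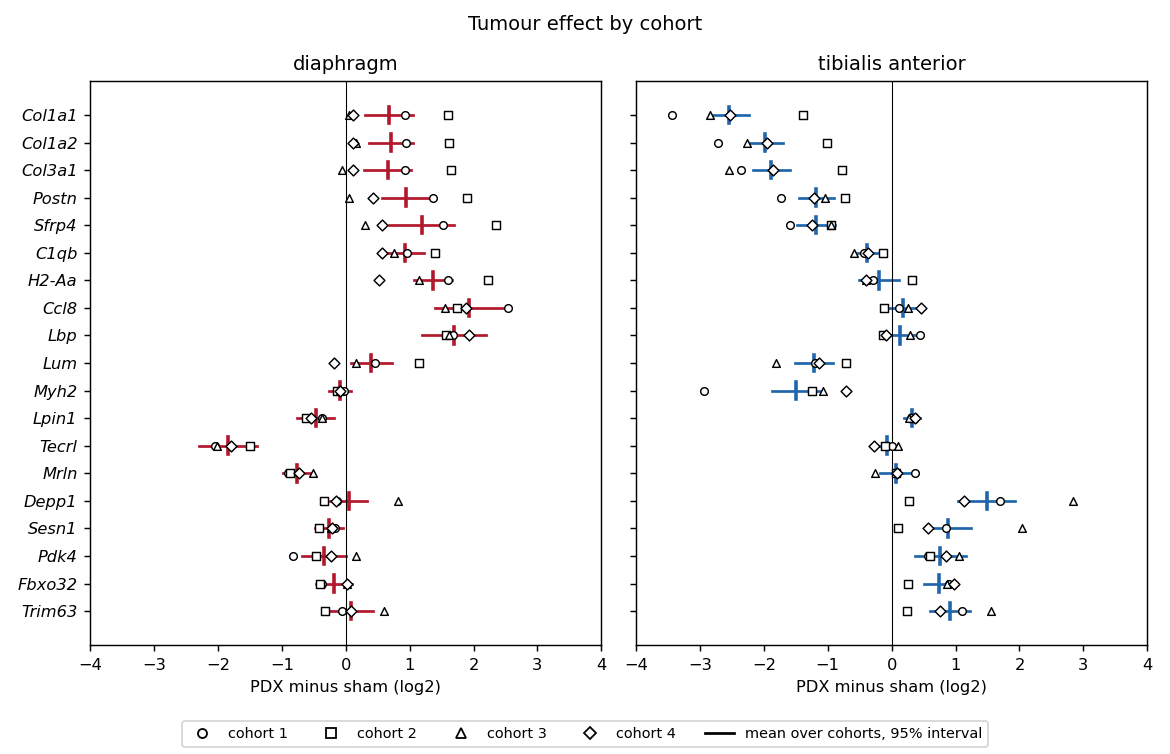
Tumour effect (PDX minus sham, log2) of named genes by cohort, in diaphragm on the left and TA on the right; coloured ticks are means over cohorts, coloured bars their 95% intervals, and open symbols single cohorts. Col1a1 effects ranged from 0.05 to 1.61 in diaphragm and from -3.44 to -1.39 in TA.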

How the data were processed

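RNA of diaphragm and tibialis anterior (TA) was measured on 58 arrays. The deposited values are log2 signals, summarised by the authors with RMA, and the submitters' processing notes name affy 1.36.1 and R 2.15.1. No source used here gives the probe set definitions or the genome build. Of 25206 probe sets 23185 carried 1 gene name and were tested, and 2021 carried none. The number of arrays limits the precision. A mean per muscle, cohort and treatment was fitted with limma 3.58.1 (R 4.3.3) without refiltering or renormalizing, each muscle's own effect came from its 29 arrays, and p-values were adjusted by Benjamini-Hochberg over all 23185 genes, with a threshold of 0.05. On simulated data for this comparison with 23185 genes, 60% of changes of 0.5 and 99% of changes of 1 (log2) were recovered, 100 genes each. The labels do not say that equally numbered arrays of both muscles are paired, so they were not treated as pairs. Of 29 correlations between their deviations (-0.22 to 0.22), 4 exceeded 0.1. For 15 of the 29 diaphragm arrays the best match was the TA array of their own number, where chance gives 8. The comparison, the genes and the 55 gene lists (1262 of 1369 genes measured) were chosen with earlier results of these data known. Named genes, 201 in all, included the largest called differences overall and by class, of the same sign in all 4 cohorts. From each list the largest called differences were taken whatever their sign by cohort, or the smallest p-values where none was called. The 4 genes with the smallest p of the cohort F test and a few fixed ones were added. Without promoter sequences in the RefSeq table, genes were only named. Alternatives covered spread, weights, cohorts, liver and tendon content, scaling, thresholds and each array in turn.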

Additional observations from a re-analysis of the deposited data

Results flagged for a closer look

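The tumour effect differed between the muscles for 1468 genes by the test of the difference itself, as described above. Single arrays stood apart from the rest of their group in 11 of 138 comparisons within groups of 4 or 5 arrays, and chance gives about 1 in 20 such groups. On the diaphragm PDX array of cohort 3, replicate 4, Cebpd was 5.008 (others 5.84 to 6.117), Ddit4, an mTOR inhibitor, 4.634 (5.734 to 6.175), Myh1 10.94 (11.38 to 11.5) and Myh2 10.45 (10.82 to 10.93), all below the others. The hepatocyte mean of this array was 9.99, against 3.37 to 5.65 on the others of its group. On the diaphragm PDX array of cohort 4, replicate 2, Col1a1 was 9.867 (8.168 to 8.295) and Col3a1 9.488 (7.916 to 8.005), both above the others. Myh1 was low on diaphragm PDX replicate 3 of cohort 4, at 10.57 (11.34 to 11.48). That array had a hepatocyte mean of 9.91, against 3.48 to 5.75 on the others of its group. The part of liver RNA in these values was not tested. Among TA PDX arrays, Foxo1 was high on replicate 5 of cohort 2, at 6.862 (6.023 to 6.173), and the tendon mean was high on replicate 3 of cohort 2, at 5.155 (4.155 to 4.364). Col1a1 was low on TA PDX replicate 1 of cohort 3, at 4.338 (5.018 to 5.167), and Igf1, a muscle growth factor, on replicate 3 of cohort 4, at 4.665 (5.007 to 5.061). In a fit of all probe sets 107 of the 2021 without a gene name also passed for the difference (5.29%), 35 above 0 and 72 below.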

How the results depend on the processing

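Counts are given as differences above 0 and below 0, then opposite (up and down in diaphragm), limb-only (up and down) and diaphragm-only (up and down). With arrayWeights they were 1357 and 1333, then 57 opposite down, limb-only 613 and 366, diaphragm-only 633 and 445. At adjusted p under 0.01 they were 462 and 223, opposite 43 and 2, limb-only 118 and 135, diaphragm-only 217 and 51. At 1.5-fold or more they were 421 and 125, 9 opposite down, limb-only 67 and 106, diaphragm-only 196 and 36. With the cohort as the replicate they were 308 and 95, opposite 12 and 3, limb-only 46 and 115, diaphragm-only 131 and 21. Without the hepatocyte-rich arrays 391 were below 0, with opposite 46 and 1, 178 limb-only up and 117 diaphragm-only down. An alternative chosen after seeing the data, without diaphragm arrays of a hepatocyte mean over 5 and without cohort 1, gave 336 and 179, opposite 12 and 0, limb-only 51 and 119, diaphragm-only 95 and 65. The hepatocyte mean as covariate, also chosen later, shared 1361 of the 1468 genes, and 6 of 171 named genes lost their call. The counts of that fit were 881 and 664, with 29 opposite down. With the tendon covariate they were 7 and 0, opposite 0 and 0, limb-only 0 and 3, diaphragm-only 4 and 0, and Fmod (-0.49), Foxo1 (0.018) and Kera (-0.31) turned sign. Without cohort 1 they were 366 and 165, opposite 32 and 1, limb-only 77 and 112, diaphragm-only 183 and 50. Without cohort 2 they were 379 and 326, opposite 28 and 6, limb-only 196 up, diaphragm-only 132 and 70. Without cohort 4, 329 were below 0, with 4 opposite down, 186 limb-only up and 73 diaphragm-only down. Opposite-down genes numbered 35 among bright genes only and 28 with centred arrays. Leaving out each array in turn gave 710 to 932 above 0, 472 to 799 below, 82 to 116 opposite up, 11 to 28 opposite down, 235 to 388 and 191 to 268 limb-only, and 328 to 441 and 133 to 259 diaphragm-only. The 11 came without diaphragm sham replicate 1 or 2 of cohort 2, and the 28 without TA PDX replicate 1 of cohort 3. With the replicate number as a block the counts were 808 and 521, with 1217 of the 1468 genes shared, 14 of 171 named genes losing their call, among them Foxo1 (adjusted p = 0.055), and 3 heat shock and 3 mitochondrial ribosomal genes called below 0. Of 29 diaphragm arrays 15 correlated best with the TA array of their own number, where chance alone gives 8, a hint of pairing from the data and not from the design.

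Of the 171 named genes with a called difference, 48 lost the call without the hepatocyte-rich arrays, 80 in the stricter setting that also leaves out cohort 1, 67 with the cohort as the replicate, and 70, 50, 29 and 31 without cohorts 1 to 4. None turned sign in these settings. In the stricter setting 23 matrix, 12 macrophage and 3 tendon genes were called above 0, and 3 atrophy, 4 proteasome, 2 glucocorticoid, 3 heat shock and 3 mitochondrial ribosomal genes below. These fits differ from the main fit in the number of samples or the n, and some also in the cohorts and the hepatocyte signal. In the stricter setting the diaphragm sham group of cohort 3 kept 1 array. The cause of these losses was not tested. Signals near the median of all probe sets limit what could be measured for 323 of the 1468 genes.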

Other observations

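Ighm, the heavy chain of IgM and a B-cell product, had a lowest, median and highest signal of 4.29, 5.26 and 6.75 on diaphragm PDX arrays and 4.64, 6.39 and 7.45 on diaphragm sham arrays, against 3.90, 5.04 and 8.76 on TA PDX arrays and 7.62, 8.60 and 9.22 on TA sham arrays. It fell in both muscles, by 1.08 in diaphragm and by 3.08 in TA, and the difference was 2.01 ± 0.37 (limma, Benjamini-Hochberg adjusted p = 0.000238). Of 21 measured lymphocyte and B-lineage genes, Ighm among them, 2 were called above 0 and 0 below. In diaphragm 1 of the 21 rose and 1 fell, and in TA 0 rose and 1 fell, with a median TA effect of -0.06. The source of the Ighm signal in this strain was not tested. Of 35 measured cell cycle genes 7 had a difference called above 0 and 0 below, and without the hepatocyte-rich arrays 1 did. Top2a, a topoisomerase of dividing cells, had effects of 0.48 in diaphragm and -0.16 in TA (adjusted p = 0.00771, and 0.0564 without those arrays). Among 24 measured genes of amino acid and polyamine metabolism, 1 was called above 0 and 7 below. Bckdhb, a subunit of the branched-chain ketoacid dehydrogenase, had -0.35 in diaphragm and 0.21 in TA (adjusted p = 0.0138). Of 27 measured immediate-early genes 0 were called for the difference, and 4 rose in each muscle. Of 30 genes for insulin and IGF signalling, 3 were called above 0 and 3 below. Sirt1, a deacetylase, had 0.02 in diaphragm and 0.44 in TA (adjusted p = 0.00314), and Sod3, the extracellular superoxide dismutase, was opposite, at 0.46 and -0.64 (adjusted p = 1.91e-05). Oasl2, an interferon-induced gene, was opposite as well, at 0.49 in diaphragm and -0.38 in TA (adjusted p = 0.000163). It was the 1 gene called of 24 interferon genes, or 4.17%, beside 6.33% of all genes.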
